A study of Mus musculus with 2 samples.

Results

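The Rab and Vps genes encode much of the machinery that moves membrane vesicles between the compartments of a cell, and 30 of the 94 such genes in the mouse had a Gata1 peak inside the gene or within 10 kb of it (31.9%), beside 16.5% of all protein-coding genes. Gata1 is a DNA-binding protein of the GATA family on which red cell formation depends. Its occupancy was mapped by chromatin immunoprecipitation and sequencing (ChIP-seq) in mouse embryonic stem cells that had been turned towards blood as embryoid bodies for 5 days. The cells were sorted for both a Runx1-ires-GFP and a Gata1::mCherry reporter, a population that the series calls primitive erythroid, and were pooled from several sorts. The series has 1 library made with an anti-Gata1 antibody and 1 control library from the same kind of cells, titled input chromatin, which was not analysed here.

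The genes were taken by symbol from the RefSeq table of the mouse genome (assembly GRCm38.p6, the build also named mm10): every protein-coding gene whose symbol is Rab or Vps followed by a digit. This gave 59 Rab genes and 35 Vps genes out of 21775 protein-coding genes with a position on a nuclear chromosome. The 10 Rab effector and cofactor genes of similar name, such as Rab11fip1 and Rab3gap1, were left out. The set was chosen by its symbols and selected on its known peak counts in the 10 kb window, so those counts are a description and were not tested. The list of peaks held 4135 intervals, each 400 bp wide, and no height, score or read count, so a gene could only be recorded as having a called peak or not. Read depth is unknown. There is no replicate, and no value below says how binding varies between cultures. Intervals given with shares are 95% Wilson intervals and cover counting error only.

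Rab proteins are small GTPases that act as switches on membranes. In the GTP-bound state each Rab recruits effectors to its own compartment, where they tether, move or fuse vesicles. Exchange factors turn Rabs on, and GTPase-activating proteins of the TBC family turn them off. The Vps genes take their name from yeast mutants in vacuolar protein sorting, and their products form the tethers (HOPS, CORVET, GARP and EARP), the cargo-sorting coats (retromer and retriever) and the membrane-cutting ESCRT complexes of the endosome. Developing red cells use this machinery to take up iron: transferrin and its receptor enter early endosomes, release iron there, and return to the surface through recycling endosomes. Later the same cells clear organelles through lysosomes and shed membrane in vesicles.

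The sequences that the peak list and the RefSeq promoter table both cover show what lies under the peaks at the starts of these genes. RefSeq promoter entries (250 bases before a start and 50 after it) were found for 70 of the 94 genes. For 3 of these 70 genes (4.29%, 1.47 to 11.9%) a peak overlapped the entry by at least 100 bases, namely Rab13, Rab5a and Vps13a, and at Vps53 the overlap was 97 bases. Among all 17491 protein-coding genes with an entry, the share was 1.97%. The bases shared by peak and entry, up to the base before the start, are printed 5′ to 3′ on the gene's own strand. Capitals mark the 4-letter core of the Gata1 motif, GATA, on either strand, so that TATC is the core on the opposite strand. Rab13 is read from chr3:90213490-90213714 (plus strand), Rab5a from chr17:53478984-53479087 (plus strand), Vps13a from chr19:16781075-16781183 (minus strand) and Vps53 from chr11:76179792-76179888 (minus strand).
Rab13: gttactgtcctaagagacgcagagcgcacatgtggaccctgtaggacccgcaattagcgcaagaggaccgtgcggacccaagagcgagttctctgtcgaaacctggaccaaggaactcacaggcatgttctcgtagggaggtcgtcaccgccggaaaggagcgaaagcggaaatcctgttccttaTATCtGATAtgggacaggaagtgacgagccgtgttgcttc
Rab5a: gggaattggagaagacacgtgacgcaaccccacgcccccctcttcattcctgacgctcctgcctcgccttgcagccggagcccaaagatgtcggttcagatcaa
Vps13a: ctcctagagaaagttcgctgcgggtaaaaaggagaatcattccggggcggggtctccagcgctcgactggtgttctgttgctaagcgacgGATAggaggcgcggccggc
Vps53: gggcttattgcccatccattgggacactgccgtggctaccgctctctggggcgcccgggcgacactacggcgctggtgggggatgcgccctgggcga
Rab13 carried the core at 40 and at 35 bases before its start, on opposite strands and 1 base apart, and Vps13a carried 1 core at 160 bases before its start. The printed bases of Rab5a and Vps53 held none. None of these 4 stretches held, on either strand, a longer form of the motif, in which the core has A or T before it and A or G after it. With A before the core the forms searched were AGATAA and its partner with a final G, AGATAG. With T before it they were TGATAA and, with a final G, TGATAG. The rest of each 400 bp interval was not read, so these letters say nothing of the sequence outside the stretches shown.

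Across the 87 promoter entries of the Rab and Vps genes, of which a gene may have several, 20 held at least 1 of the 4 longer GATA forms on either strand (23.0%, 15.4 to 32.9%), against 26.0% of the 21262 entries of protein-coding genes and 29.8% of all 32851 entries, noncoding genes included. AGATAA, which is 1 of those forms, was in 3 of 87 entries (3.45%, 1.18 to 9.65%), against 9.65% of coding and 11.2% of all entries, so that the coding share lay at the edge of the interval. The sequence CCACCC, the CACCC-type element that Krüppel-like factors read, was in 39 entries (44.8%, 34.8 to 55.3%), against 33.6% of coding and 31.5% of all entries. The E-box CAGCTG was in 17 (19.5%, 12.6 to 29.1%), against 15.6% of coding and 16.3% of all entries. A composite of CTG and AGATAA with 7 to 9 bases between them was in 0 (upper limit 4.23%), against 0.677% of coding and 0.858% of all entries; this composite contains AGATAA. Among the 439 entries of any gene that a Gata1 peak overlapped by 100 bases or more, 49.9% held a longer GATA form, and among the 32310 that no peak touched, 29.5% did. All 3 entries of Rab and Vps genes with such an overlap were without 1 (upper limit 56.1%, which includes the 49.9%).

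The share of 31.9% with a peak in the 10 kb window had an interval of 23.4 to 41.9%, and the background share of 16.5% was 3597 of 21775 genes. The share was 27.1% for the Rab genes (16 of 59, 17.4 to 39.6%) and 40.0% for the Vps genes (14 of 35, 25.6 to 56.4%). The background was 18.9% when chemosensory receptor genes and unnamed gene models were left out. The 30 genes were served by 37 peaks, none of them shared between members. Vps13d had 5 peaks, Rab5a 3 and Rab36 2, and the other 27 had 1 each. At least 2 peaks were found for 3 of the 30, and for 667 of the 3597 protein-coding genes with any (18.5%). The median distance from gene body to nearest peak was 57.0 kb for the 94 genes and 135 kb for all protein-coding genes. More than 1000 kb from any peak lay 8 of the 94, and 2852 of all 21775 protein-coding genes.

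**Figure D1:**
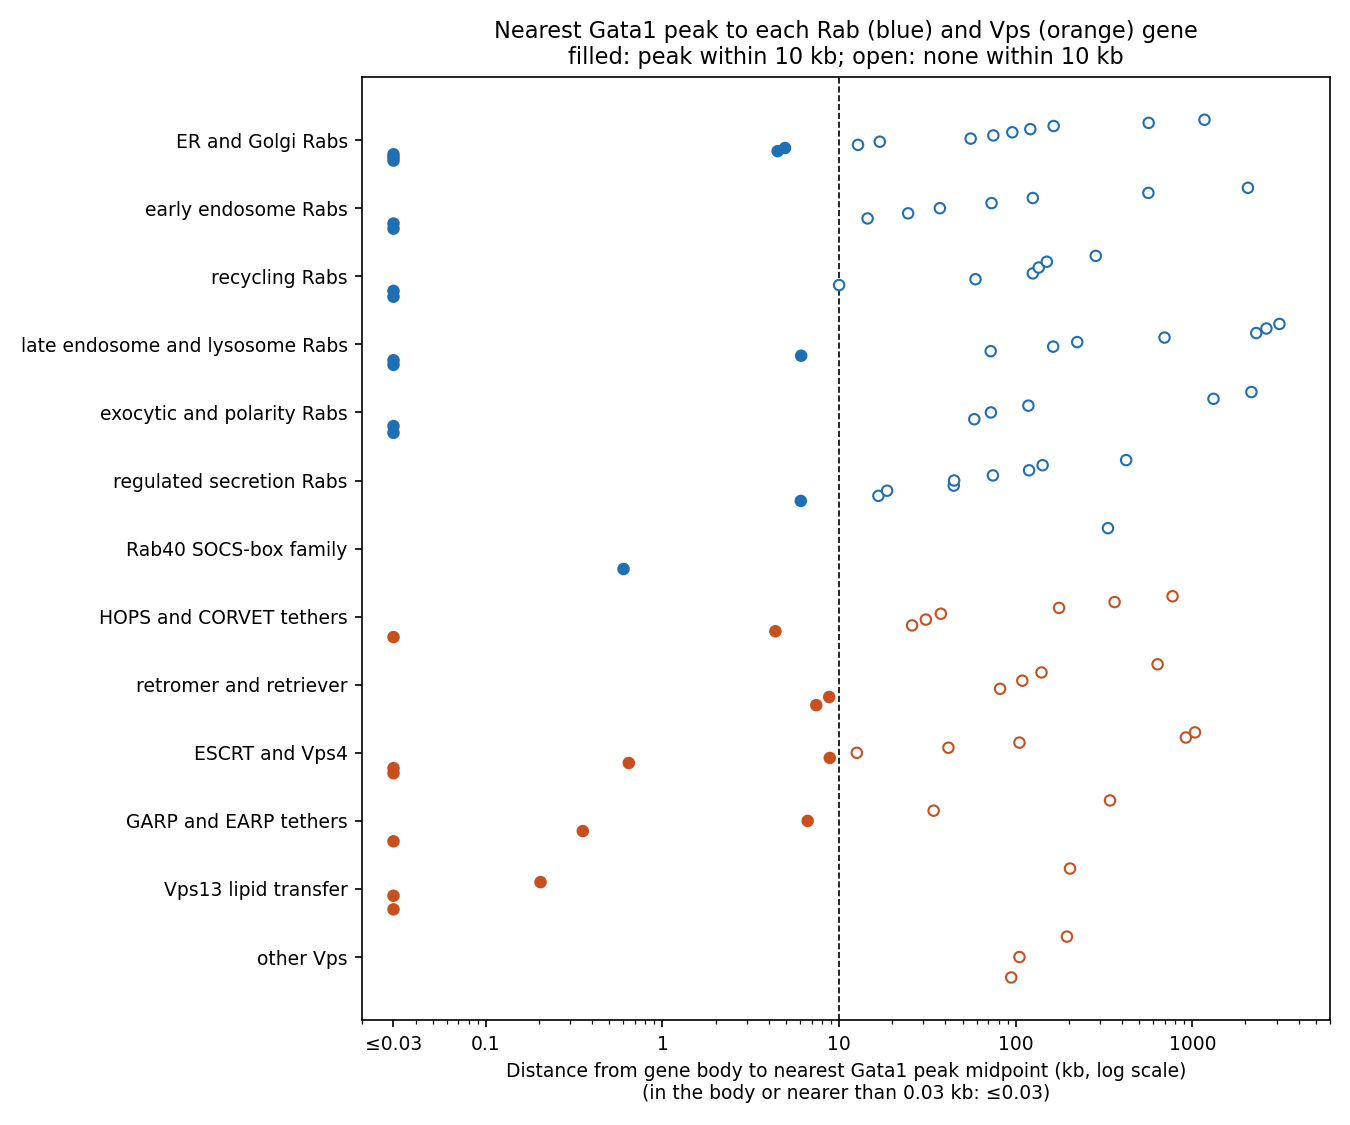
Distance in kb (log axis) from the body of each of the 94 Rab and Vps genes to the nearest Gata1 peak midpoint, by role. Each point is 1 gene, blue for Rab and orange for Vps, filled where a peak lay within the 10 kb marked by the dashed line, and 15 genes with a peak in the body are drawn at the left edge together with Rab13 and Vps33b. Rab4a stands just outside the line, at 10004 bp.

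The count depended on how near a peak had to be. With peaks in the gene body alone, 15 of the 94 genes had 1 (16.0%, background 9.35%). With 1 kb added the count was 21 (22.3%, background 11.3%), with 5 kb it was 24 (25.5%, background 13.9%), and with 50 kb it was 46 (48.9%, background 32.0%). The members nearest to the 10 kb limit were, on the inside, Vps37d at 8.86 kb, Vps35l at 8.79 kb and the farther of the Rab36 peaks at 7.98 kb, and on the outside Rab4a at 10004 bp. Rab4a encodes a Rab of fast endosomal recycling, a route by which the transferrin receptor returns to the surface.

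**Figure D2:**
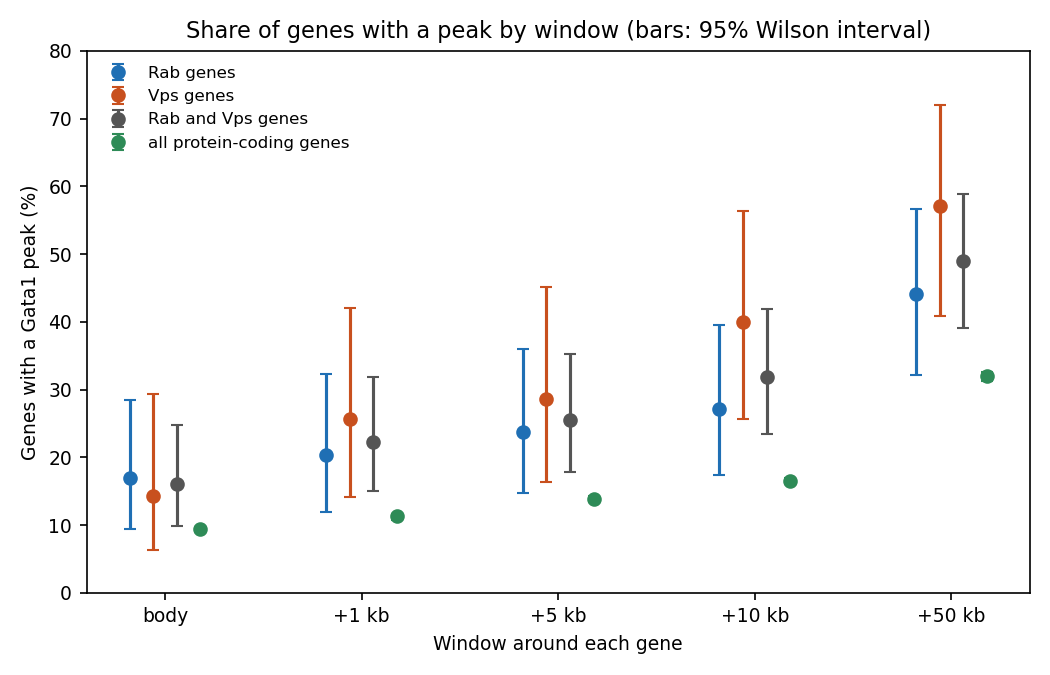
Share of genes (%) with a Gata1 peak midpoint in the gene body or within the stated distance of it. Points are the 59 Rab genes, the 35 Vps genes, both together and all 21775 protein-coding genes, with 95% Wilson intervals; the share for both together went from 16.0% in the body to 48.9% with 50 kb, and the share for all genes from 9.35% to 32.0%.

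Gene length and crowding change how often any gene has a peak in its window, and the values are therefore given by class. Under 10 kb of length, 5 of 15 Rab and Vps genes had a peak (33.3%, all genes 10.2%). At 10 to 30 kb it was 13 of 44 (29.5%, all genes 16.5%), at 30 to 100 kb 5 of 22 (22.7%, all genes 20.8%) and above 100 kb 7 of 13 (53.8%, all genes 28.1%). Where no other protein-coding gene lay within 10 kb, 3 of 23 Rab and Vps genes had a peak (13.0%), close to the 11.3% of all such genes. With 1 or 2 neighbours it was 21 of 54 (38.9%, all genes 18.7%), and with 3 or more it was 6 of 17 (35.3%, all genes 25.9%). Rab and Vps genes without a neighbour made up 24.5% of the set, and such genes made up 38.1% of all protein-coding genes. The part of crowding in the count was not tested.

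Many of the peaks lay at a neighbouring gene. Of the 37 peaks, 21 also fell in the window of at least 1 other protein-coding gene, and for 12 of them the body of another gene was nearer than that of the Rab or Vps gene. The same shares were not counted over all peaks, so they cannot be called particular to the Rab and Vps genes. When each peak was given only to the nearest gene body, 19 of the 94 genes kept 1 (20.2%, background 12.3%): 12 Rab genes (20.3%) and 7 Vps genes (20.0%). The 11 genes that lost their only peak in this way were Rab1a, Rab1b, Rab3d, Rab42, Vps11, Vps25, Vps29, Vps35l, Vps37d, Vps51 and Vps53.

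**Figure D3:**
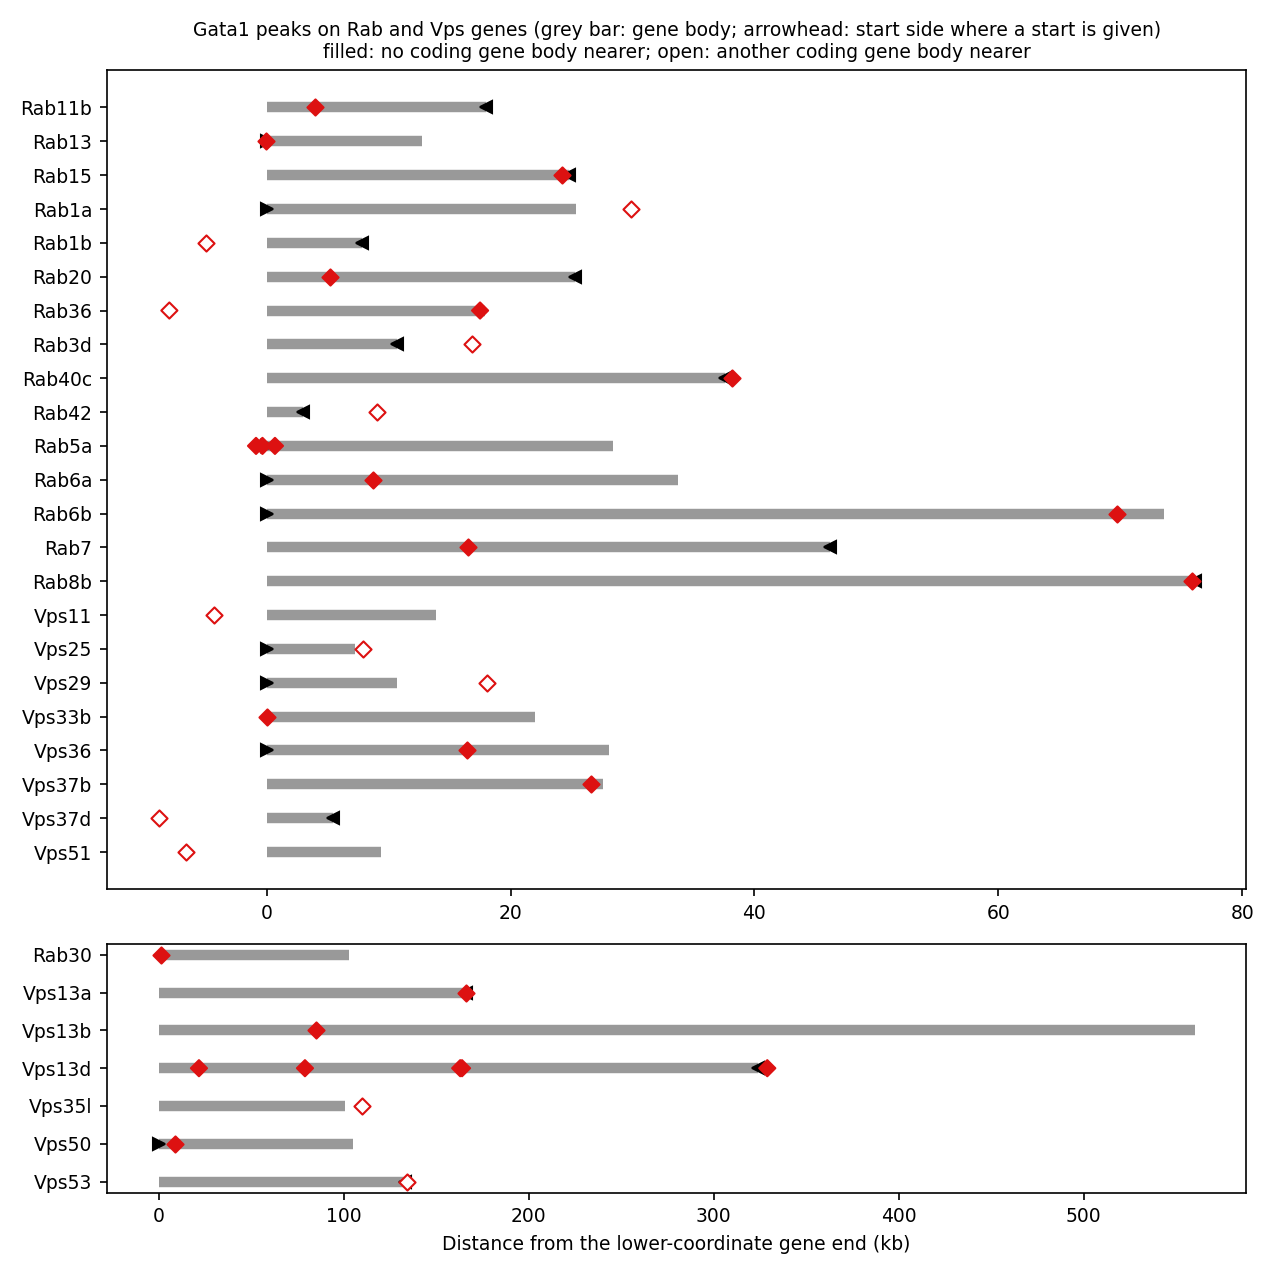
Gata1 peaks (diamonds) on the 30 Rab and Vps genes that had any, in kb from the lower-coordinate end of each gene, with genes under 80 kb above and longer genes below. Grey bars are gene bodies, arrowheads mark the start side for the 22 genes with an annotated start, filled diamonds are peaks with no other coding gene body nearer, and open diamonds are the 12 peaks that lay nearer to another gene.

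Position relative to the start of the gene was not used to choose the members. For the 22 genes with both a peak and an annotated start, 9 of 28 peaks lay within 1 kb of that start (32.1%, 17.9 to 50.7%), against 21.5% of the 3592 pairs of gene and peak over all protein-coding genes. The next nearest lay over 2.5 kb away, since 9 was also the count at 2.5 kb (all genes 30.2%). The 9 include the 3 Rab5a peaks described below, which the interval counts as separate. Upstream of the start lay 9 peaks, and 19 lay downstream. Counted against the start of any protein-coding gene, 13 of the same 28 peaks lay within 1 kb (46.4%, 29.5 to 64.2%). Of all 37 peaks 14 did (37.8%, 24.1 to 53.9%), against 21.5% of 3276 peaks in coding windows. Within 2.5 kb the count was also 14, against 29.7% of the 3276, which lies inside the same interval. These counts against any start were chosen after seeing the data. Inside some protein-coding gene lay 26 of 37 (70.3%, 54.2 to 82.5%), against 74.3%.

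Among the endosomal Rabs, 2 of 9 early endosome genes had a peak (22.2%, 6.32 to 54.7%, all protein-coding genes 16.5%). Rab5a, encoding the Rab that governs fusion of early endosomes and so the first stop of internalised transferrin, had 3 peaks around its start. They lay at chr17:53478161-53478560, chr17:53478688-53479087 and chr17:53479714-53480113, with midpoints 873 and 346 bp before the start and 680 bp after it. The neighbouring midpoints were 527 and 1026 bp apart, and no other protein-coding gene had these peaks in its window. With positions alone, separate sites cannot be told apart from 1 region called more than once. The paralogues Rab5b and Rab5c had no peak in the window, with the nearest at 14.5 and 24.6 kb. Rab20 carried a peak in the gene, 20.1 kb after its start and 5.17 kb from its other end. Rab17, Rab21, Rab22a, Rab24 and Rab31 had none, at distances from 37.2 kb (Rab21) to 2065 kb (Rab31).

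Of 8 recycling Rabs, 2 had a peak. Rab11b, a Rab of the slow recycling endosome, carried 1 in the gene, 14.0 kb after its start, whereas the nearest peak to its paralogue Rab11a was 125 kb away. Rab15 carried 1 at chr12:76821997-76822396, 327 bp after the nearer of its annotated starts. Rab14, Rab25, Rab35, Rab4a and Rab4b had none.

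Late endosome and lysosome Rabs had a peak at 3 of 10 genes. Rab7, encoding the Rab that drives traffic to lysosomes, had 1 at chr6:88015438-88015837, inside the gene and 29.4 kb after its start. Gata2, the GATA factor of early blood progenitors, lies on the same chromosome 178 kb from this peak. Rab36 had 1 peak just inside its higher-coordinate end (0.334 kb) and 1 peak 7.98 kb below it that lay inside Rsph14. Rab42 had its peak 6.12 kb upstream of the start, inside the noncoding gene Snhg12. The 7 others were Rab29, Rab32, Rab34, Rab38, Rab7b, Rab9 and Rab9b, with nearest peaks from 72.2 kb (Rab34) to 3114 kb (Rab9b).

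The Rabs of the early secretory pathway had a peak at 5 of 14 genes (35.7%, 16.3 to 61.2%, all genes 16.5%). Rab6a, which serves retrograde transport at the Golgi, carried a peak 8.74 kb after its start, and its paralogue Rab6b, known from neurons, carried 1 in the gene 3.95 kb from the end farther from the start. The peak of Rab30, a Golgi Rab, lay within the gene body, with 1.40 kb between it and the lower-coordinate end. Rab1a and Rab1b, which act between endoplasmic reticulum and Golgi, each had 1 peak outside the gene, at 4.49 and 4.94 kb. Both peaks lay inside a neighbour, Cep68 for Rab1a and Cnih2 for Rab1b. Neither Rab2a nor Rab2b had a peak, and the other 7 without 1 were Rab18, Rab19, Rab33a, Rab33b, Rab39, Rab39b and Rab43.

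Exocytic and polarity Rabs had a peak at 2 of 7 genes (28.6%, 8.22 to 64.1%, all genes 16.5%), both at the start. The Rab13 peak at chr3:90213490-90213889 had its midpoint 25 bp before the start. The start of Rps27, a ribosomal protein gene read in the opposite direction, was 67 bp from that of Rab13, and the peak covered both, so that it cannot be given to either gene. The Rab8b peak at chr9:66919314-66919713 had its midpoint 191 bp after the start, and no other coding gene had it in its window. Its paralogue Rab8a, which like Rab8b serves transport to the cell surface, had its nearest peak at 58.3 kb. Rab10, Rab12, Rab23 and Rab28 had none.

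Regulated secretion Rabs had a peak at 1 of 9 genes (11.1%, 1.99 to 43.5%, all genes 16.5%). This was Rab3d, a Rab of secretory granules, and the peak lay 6.08 kb upstream, inside Tmem205. The granule genes Rab27a and Rab27b, known from mast cells, platelets and pigment cells, had their nearest peaks at 142 and 422 kb, and Rab3a, Rab3b, Rab3c, Rab26, Rab37 and Rab44 also had none in the window. Of the Rab40 genes, which encode Rabs joined to a ubiquitin ligase box, Rab40c had a peak 602 bp upstream of its start and Rab40b had none. The 4 members on the X chromosome, Rab33a, Rab39b, Rab9 and Rab9b, had no peak within 10 kb (all genes 16.5%). The share over all genes of the X was not counted, so nothing about the X follows.

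Among the Vps genes, those of the Vps13 family, which encode large proteins that carry lipids between membranes, had a peak at 3 of 4 genes. Vps13a encodes chorein, whose loss in people causes a movement disorder with misshapen, spiky red cells. Its peak, at chr19:16781075-16781474, had its midpoint 342 bp upstream of the start and lay in no other coding gene's window. Vps13b carried 1 peak, 85.1 kb from its lower-coordinate end in a gene of 560 kb, and Vps13c had none within 203 kb. Vps13d had 4 peaks in the gene and 1 upstream of it by 5.08 kb. The annotated body of Vps13d spans 324 kb and contains the whole of Dhrs3, a retinoid metabolism gene. The peak at chr4:144892619-144893018 lay 8 bp before a start of Dhrs3, 298 kb from the start of Vps13d. Of the other 3 in the gene, 1 lay 241 kb after the start, inside the noncoding gene Gm42344. The remaining pair had midpoints 1007 bp apart, at 157 and 156 kb after the start of Vps13d. Vps13 genes are long, and above 100 kb 28.1% of all protein-coding genes had a peak in the window.

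The ESCRT genes, whose products bud vesicles into endosomes and sever their necks, had a peak at 4 of 9. The share was 44.4% (18.9 to 73.3%), beside 16.5% of all protein-coding genes. Vps36, of ESCRT-II, carried 1 in the gene 16.4 kb after its start, and Vps37b, of ESCRT-I, carried 1 in the gene 0.985 kb from its higher-coordinate end. Vps25, also of ESCRT-II, had a peak 0.645 kb beyond its far end, and the midpoint was 371 bp before the start of the neighbouring kinase gene Wnk4. The peak in the window of Vps37d lay 8.86 kb away and inside Bud23, 923 bp after the start of that gene. Vps28, Vps37a, Vps37c, Vps4a and Vps4b had none, and the nearest to Vps37c was at 12.6 kb.

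The tethering complexes had peaks at 3 of 5 GARP and EARP genes and at 2 of 8 HOPS and CORVET genes. Vps50, the subunit that distinguishes EARP, had a peak in the gene 8.89 kb after its start. Vps53, shared by GARP and EARP, had 1 with its midpoint 354 bp upstream of its start and inside Tlcd3a, whose start lies 33 bp from that of Vps53 on the opposite strand. Vps51, also shared by GARP and EARP, had 1 at 6.64 kb, with its midpoint 10 bp before the start of Znhit2. Vps52 and Vps54 had none. Vps33b, known for its part in forming platelet alpha granules, was grouped with its paralogue Vps33a, which is the HOPS and CORVET subunit. In mammals Vps33b is not itself a subunit of either complex. The Vps33b peak lay 4 bp outside the lower-coordinate end of the gene, at chr7:80269417-80269816. Vps11, a core subunit of both HOPS and CORVET, had 1 peak in its window, 4.36 kb outside the gene. Vps16, Vps18, Vps33a, Vps39, Vps41 and Vps8 had none.

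Retromer and retriever genes, whose products rescue cargo from endosomes, had a peak at 2 of 6 (33.3%, 9.68 to 70.0%, all genes 16.5%). The Vps29 peak lay 7.43 kb beyond the gene and 71 bp before the start of Fam216a. The start of Gpn3, read in the opposite direction, was 166 bp from that of Fam216a, and the peak covered the upstream bases of both. The stretch before the Gpn3 start is shown because it was the only one of those read under these 37 peaks with a longer GATA form. It is chr5:122372258-122372507, plus strand, with the core of that form at 208 bases before the start and another core at 171 bases.
Gpn3: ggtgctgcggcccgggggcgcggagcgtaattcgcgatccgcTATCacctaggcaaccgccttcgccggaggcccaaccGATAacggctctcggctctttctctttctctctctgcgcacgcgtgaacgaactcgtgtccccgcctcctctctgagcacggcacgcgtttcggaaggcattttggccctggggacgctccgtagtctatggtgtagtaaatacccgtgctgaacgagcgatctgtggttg
The Vps35l peak, 8.79 kb from the gene, lay inside Knop1. Vps35, the central retromer subunit, which is known to take part in recycling of the transferrin receptor, had its nearest peak at 81.6 kb, and Vps26a, Vps26b and Vps26c had theirs at 109, 636 and 140 kb. Of the other Vps genes, Vps45, Vps9d1 and Vps72 had none (0 of 3, upper limit 56.1%, all genes 16.5%). Vps72, in spite of its symbol, encodes a subunit of chromatin remodelling complexes and is no vesicle gene.

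The other genes of the pathway were taken from 9 lists, drawn up with earlier results of these data known. Of 178 such genes, none of them in the set above, 55 had a peak within 10 kb (30.9%, 24.6 to 38.0%). The background was 16.5%, or 18.9% without chemosensory receptor genes and unnamed gene models. Gene length was not allowed for in these lists. Rab effectors and cofactors had 8 of 21, with 3 peaks at Rab11fip1, which links recycling Rabs to motors, and 2 each at Rab3il1 and Rbsn, a Rab5 effector. The TBC GTPase-activating proteins had 13 of 36, with 3 peaks each at Tbc1d24 and Tbc1d8. Exchange factors had 8 of 31 with 1 each, among them Rabgef1, which activates Rab5, and Ankrd27. The factors that attach lipid to Rabs or carry them in the cytosol had 1 of 6, at Rabggtb, and the other ESCRT genes had 4 of 21, with 2 peaks at Chmp6. Sorting nexins and the WASH complex had 6 of 18, with 2 peaks each at Snx3 and Snx9, and the Arf, Arl and Sar GTPases had 7 of 28 with 1 each.

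Of the 9 exocyst genes, 4 had a peak (44.4%, 18.9 to 73.3%): Exoc4, Exoc6, Exoc6b and Exoc8. Exoc6 is mutated in the haemoglobin-deficit mouse, which recycles transferrin poorly. Of 11 partners of the transferrin cycle, 7 had a peak (63.6%, 35.4 to 84.8%). Both lists stand beside 16.5% of all protein-coding genes. Among the transferrin cycle partners, 3 peaks were at Ehd1, a recycling endosome ATPase, 2 at Snx3 and 1 each at Exoc6, Myo5b, Picalm, Slc11a2 and Tfr2. The receptor gene Tfrc had none within 33.4 kb. Exoc6, Snx3 and Rabgef1 stand on 2 of the 9 lists each and are counted in both. The results known when the lists were drawn up included those for Snx3 and Tfrc.

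**Figure D4:**
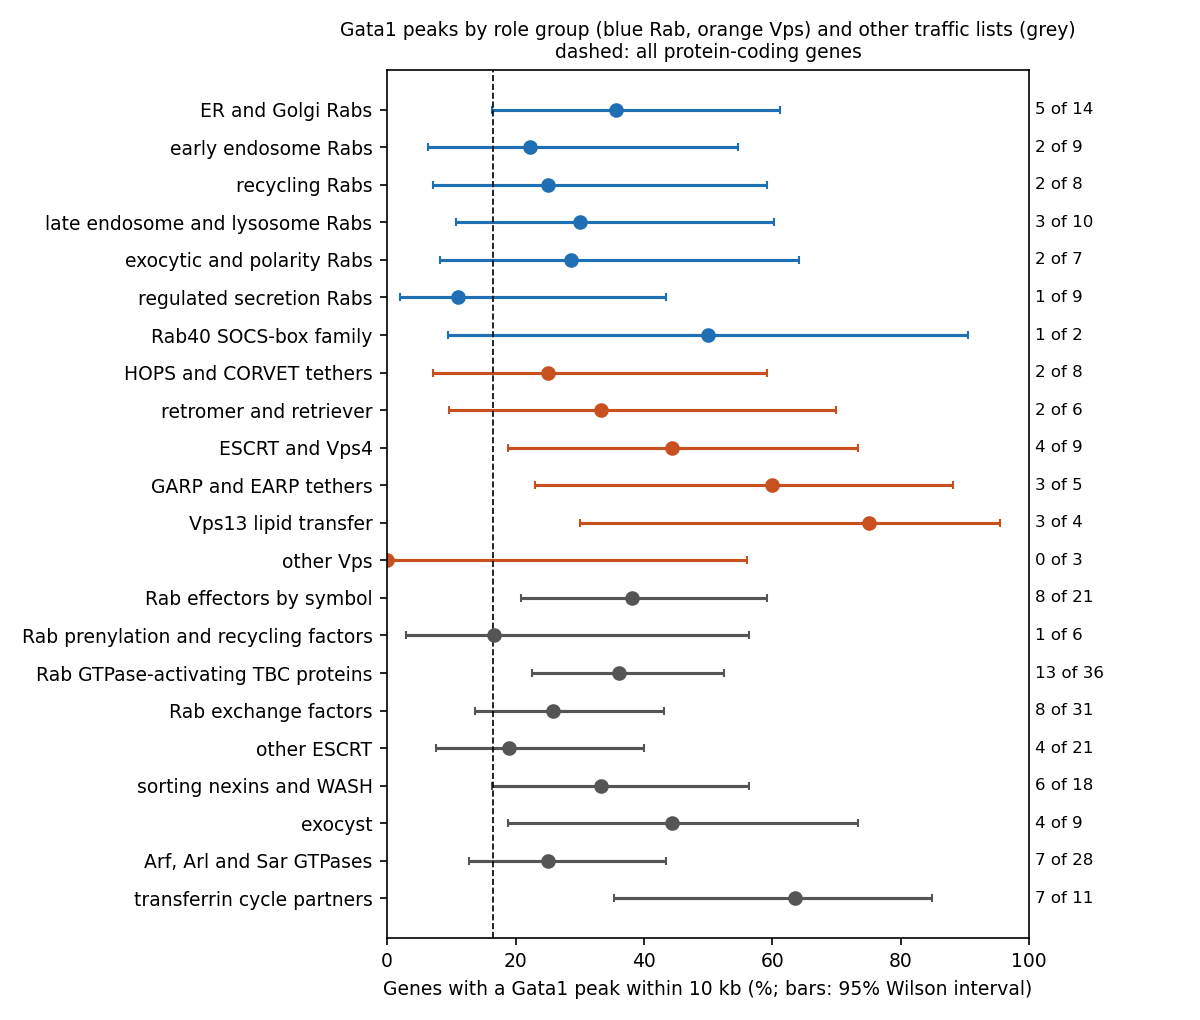
Share of genes (%) with a Gata1 peak within 10 kb for the 13 role groups of the Rab (blue) and Vps (orange) genes and for the 9 other lists of traffic genes (grey), with 95% Wilson intervals and the counts at the right. The dashed line is the 16.5% of all protein-coding genes; the intervals of most role groups cross it.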

How the data were processed

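Peak positions are used as the authors deposited them (chromosome, start and end). Bowtie2 2.0.6, MACS2 2.0.10 and build mm10 are named in the submitters' processing notes; the settings, the peak threshold and how the control was used were not given in the sources used here. Every interval has the same width, so peaks could not be ranked. A peak was given to each protein-coding gene whose body, extended by 10 kb at both ends, held its midpoint. On the X and the autosomes, gene entries that start below 3 Mb (scaffold coordinates), 4 entries without a position and mitochondrial genes were left out. Starts, strands and sequences came from the RefSeq promoter table. Coordinates are 1-based.

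No test was run: the members, role groups and lists were chosen with earlier results of these data known, and there is 1 ChIP library. All genes of the set with a peak are named, but not every neighbouring gene is reported here. Peak assignment and motif search were tested on simulated data and recovered 200 of 200 known answers each. Python 3.11.15, pandas 2.3.3, numpy 2.4.6, scipy 1.17.1 and matplotlib 3.10.9 were used. The planned motif share of peaks was replaced by that of promoter entries, since no genome sequence was used here.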

Additional observations from a re-analysis of the deposited data

How the results depend on the processing

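The number of Rab and Vps genes with a peak was 30 and became 15 with the gene body alone, 46 with 50 kb added and 19 with the nearest gene only. For the Rab genes the count of 16 became 10 with the body alone and 26 with 50 kb. For the Vps genes the count of 14 became 5 with the body alone, 9 with 1 kb and 7 with the nearest gene only. The 37 distinct peaks became 18 with the body alone and 69 with 50 kb. The 9 of 28 peaks near a gene's own start became 13 of 28 when the start of any coding gene counted and 14 of 37 when all peaks of the set were also taken, alternatives chosen after seeing the data. The share of promoter entries with a GATA motif, 23.0%, became 3.45% with AGATAA alone and 54.0% with the 4-letter core (coding entries 53.2%, all entries 57.9%), which was also added after seeing the data. A wider window or shorter motif gives more by construction. The count of genes with a peak moved by less than 1.5 times with 5 kb, any overlap (31 genes, Rab4a added), autosomes only, close peaks merged, effectors included (35 of 104 genes) and without Vps72. Motifs in the central part of each peak were not examined, and no stricter peak threshold could be applied. No paired analysis was possible because there is 1 ChIP library. Depth is unknown, and weak binding may have gone uncalled.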
